A study of Mus musculus with 4 samples.

Results

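Lrp6, the co-receptor that starts canonical WNT signalling, and 9 further genes of that pathway were followed in B16-F10 cells, a mouse melanoma line, after passage through zebrafish. These 10 genes, of 53465 in the count table, are the co-receptors Lrp6 and Lrp5, the effector Ctnnb1, the destruction complex genes Axin1, Axin2, Apc, Gsk3b and Csnk1a1, and the transcription factor genes Lef1 and Tcf7l2. Lrp6 was chosen by its measured counts, for its fall in the extravasated libraries of this same comparison, so its difference between the groups is given as a description, with no test. The other 9 were taken for their place in the pathway, but with earlier results of these data known. Of the 10, 9 passed the filter on low counts, and Lef1 did not.

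The extravasated group holds 2 libraries of cells whose extravasation field says that they had left the circulation of the fish. The not extravasated group, the control of the series' design text, holds 2 libraries of infused cells that had not. All 4 libraries hold polyA RNA of fluorescent B16-F10 cells that were taken back from the fish and grown in IMDM with 10% FBS, so expression was measured after culture. The growth text speaks of cells that left the vessels as clusters for all 4 libraries alike, and only the extravasation field and source name separate the groups. Both titles of a group share a number that the other group lacks, so extravasation and the meaning of this number cannot be told apart. Separate fish or cultures are not stated, and the p-values below cover the spread between these libraries, which may be technical.

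In canonical WNT signalling a secreted WNT protein binds a frizzled receptor together with LRP5 or LRP6. Without the ligand, a destruction complex built on AXIN and APC lets the kinases CK1 and GSK3 phosphorylate beta-catenin, which is then degraded. With the ligand, the tail of the co-receptor is phosphorylated and draws AXIN to the membrane, and beta-catenin builds up and works with TCF and LEF factors in the nucleus. In melanocytes the pathway is known for its part in their specification from the neural crest and for its action on Mitf.

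The kinases act on repeats in the co-receptor tail that are rich in proline and serine. The codon run for the core of such a repeat, CCN CCN CCN, then a serine codon (TCN, AGC or AGT), then CCN, was searched in frame on the coding strand of the annotated principal transcripts (GENCODE M21, GRCm38). It was found at 2 places in Lrp6 and at 2 in Lrp5, at the far end of coding sequences of 4839 and 4842 bases without the stop codon. Of 21947 principal coding sequences, 161 (0.734%) hold it at any place. The runs are shown as an example of how the paralogues differ in base composition, which is taken up again below for whole transcripts. The printed stretches hold 59.3 and 74.1% GC in Lrp6 and 74.1 and 77.8% in Lrp5. The whole transcripts hold less, 46.0% in Lrp6 and 58.6% in Lrp5. Capitals mark the run, written 5′ to 3′.
Lrp6, first run: ttgaacCCACCACCATCGCCTgccaca
Lrp5, first run: ctgaacCCACCCCCGTCCCCGgccaca
Lrp6, second run: tacccgCCACCACCCTCCCCCtgcacg
Lrp5, second run: ttcccgCCCCCACCGTCCCCCtgcacg
The runs start at coding base 4459 and 4810 in Lrp6 and at 4495 and 4813 in Lrp5, counted from 1 at the start codon. In the first pair, 1 of the 5 codons of Lrp6 ended in G or C, against 4 of 5 in Lrp5. In the second pair it was 3 of 5 against 4 of 5. Over the whole coding sequence, the last base of the codon was G or C in 51.0% of the codons of Lrp6 and 72.9% of those of Lrp5.

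Library totals ran from 11705904 to 19674733 counts, and mitochondrially encoded genes took 6.51 to 8.88% of them. All 8 melanocytic markers were detected. Levels are in CPM (read counts scaled to library size with TMM factors). Their sum was 29570 and 24230 CPM in the non-extravasated and 31820 and 30850 CPM in the extravasated libraries, without overlap. Pmel, Dct, Mlana, Sox10 and Slc45a2 were higher in both extravasated libraries, Tyr and Mitf were lower in both, and Tyrp1 overlapped. Over all genes tested, the groups did not overlap in 76.3%. The marker levels carry no correction for GC content. Reads were absent for 4 of 4 erythroid markers, for 4 of 5 epithelial ones (all but Cdh1), for 4 of 6 leukocyte ones (all but Cd68 and Lyz2), for 3 of 5 endothelial ones (Cdh5, Kdr and Tek) and for 2 of 6 fibroblast ones (Dcn and Lum). The summed endothelial markers, nearly all Vwf, moved with the group, at 8.77 and 3.82 CPM in the non-extravasated and 15.3 CPM in each extravasated library. Their part in the results was not tested. The other sums were 4.53 to 5.38 CPM for leukocyte, 16.3 to 23.2 CPM for fibroblast and 0.637 to 1.16 CPM for epithelial markers, and for these the groups overlapped except for the epithelial sum, which is Cdh1 alone. In bulk RNA, fewer cells of a kind and less RNA per cell cannot be told apart.

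Lrp6 (ENSMUSG00000030201.15, GRCm38 chromosome 6, 134446476 to 134566965, minus strand) was 4.17-fold lower in the extravasated group. Its level was 227.5 CPM in not_extravasated_1, 240.3 CPM in not_extravasated_2, 61.2 CPM in extravasated_1 and 51.2 CPM in extravasated_2, from 2621, 4153, 808 and 973 counts. Values for the 4 libraries follow this order throughout. Both extravasated libraries were low, and the groups were far apart compared with the gap inside either. The means were 233.9 ± 9.07 and 56.2 ± 7.03 CPM (SD, n = 2 each), which is -2.06 ± 0.141 as a log2 fold change (SE from the edgeR fit). Of 12320 genes tested, 293 had a lower log2 fold change. Leaving out 1 library at a time gave -1.97 to -2.16. With only 2 libraries a group, an exact two-sided permutation test over libraries cannot go below 0.333.

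Lrp5 (ENSMUSG00000024913.16, chromosome 19, 3584828 to 3686564), the paralogue that can take the same place at the receptor, moved the other way. It stood at 87.4 and 80.6 CPM in not_extravasated_1 and not_extravasated_2, and at 103.2 and 116.4 CPM in extravasated_1 and extravasated_2. The extravasated libraries were both above the others. It rose 1.31-fold, or 0.39 ± 0.132 on the log2 scale (SE), with an adjusted p of 0.0452 by the quasi-likelihood test of edgeR. The call ended without not_extravasated_2 (0.33, adjusted p = 0.0988), without extravasated_1 (0.50, adjusted p = 0.0711) and without extravasated_2 (0.26, adjusted p = 0.307), and also with DESeq2 (0.41, adjusted p = 0.0507) and with plain library totals (0.33, adjusted p = 0.0667).

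**Figure D1:**
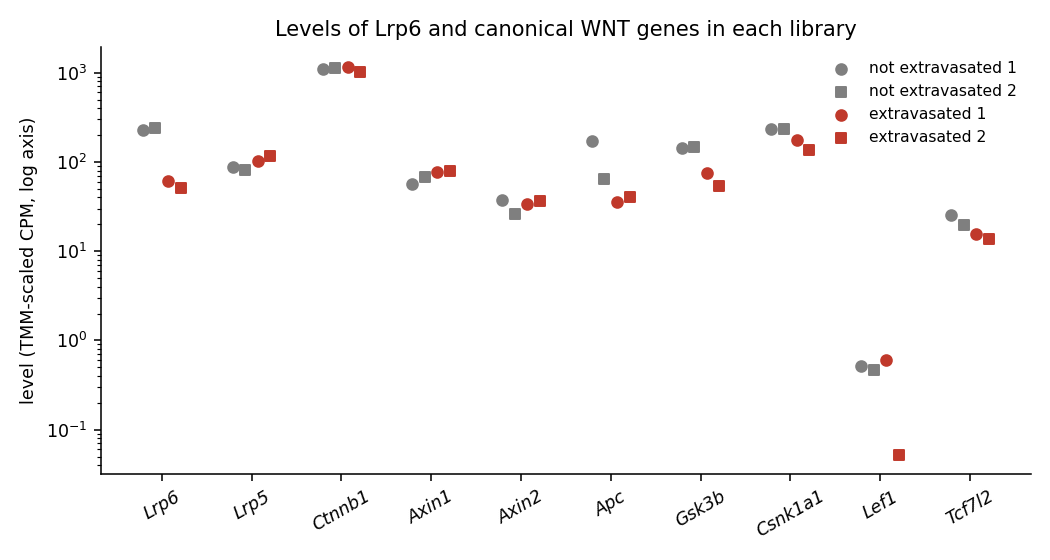
Level of each of the 10 genes in each of the 4 libraries, as TMM-scaled CPM on a log axis; grey points are not extravasated, red points extravasated, circles library 1 and squares library 2. Lrp6 drops from 227.5 and 240.3 to 61.2 and 51.2 CPM, Ctnnb1 stays between 1024 and 1164 CPM, and Lef1 lies under 1 CPM.

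Per kilobase of the annotated transcript, the balance of the co-receptors turned over. The level per kilobase was 24.3 and 25.6 CPM for Lrp6 against 16.9 and 15.6 CPM for Lrp5 in the non-extravasated libraries. It was 6.53 and 5.47 CPM for Lrp6 against 19.99 and 22.6 CPM for Lrp5 in the extravasated ones. Lrp6 thus supplied 58.9 and 62.2% of the summed co-receptor level in the former and 24.6 and 19.5% in the latter. The summed level of both genes was 41.2 and 41.3 CPM per kilobase without extravasation and 26.5 and 28.0 with it. These shares contain the fall by which Lrp6 was chosen and were not tested. They rest on levels without a correction for the GC content of transcripts, which is taken up below.

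Ctnnb1 (ENSMUSG00000006932.17, chromosome 9, 120929216 to 120960507), which encodes beta-catenin, was the most abundant of the 10 genes per kilobase in every library, at 282.6 to 321.2 CPM per kilobase. Its level was 1105 and 1138 CPM in not_extravasated_1 and not_extravasated_2, and 1164 and 1024 CPM in extravasated_1 and extravasated_2. The groups overlapped. The log2 fold change was -0.04 ± 0.115 (SE; edgeR, adjusted p = 0.816), and it lay between -0.10 and 0.02 with 1 library left out. RNA levels do not show how much beta-catenin protein was stable. Exons of Ulk4 on the other strand share 759 bases with Ctnnb1, and Ulk4 had 68 to 133 counts against at least 12732 for Ctnnb1.

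Among the scaffolds, Axin1 (ENSMUSG00000024182.16, chromosome 17, 26138688 to 26195811) did not pass the test. It stood at 56.9 and 67.9 CPM without extravasation and at 77.7 and 79.0 CPM with it. The extravasated libraries were above the others. Its log2 fold change was 0.33 ± 0.141 (SE), and the adjusted p by edgeR was 0.0938. Without not_extravasated_2 it was 0.46 and called (adjusted p = 0.0277). Axin2 (ENSMUSG00000000142.15, chromosome 11, 108920349 to 108950783), a scaffold that is also a widely used direct target of beta-catenin and TCF, stood at 37.0, 26.2, 34.1 and 36.0 CPM in the 4 libraries. Its groups overlapped. Its change on the log2 scale was 0.15 ± 0.193 (SE), and the adjusted p by edgeR was 0.543. Axin1 made up 63.5 and 74.5% of the summed Axin level per kilobase without extravasation and 72 and 71.2% with it.

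Apc (ENSMUSG00000005871.14, chromosome 18, 34220924 to 34322552), the large scaffold and tumour suppressor, fell 3.08-fold. The libraries within the control group were far apart, at 171.6 CPM in not_extravasated_1 and 64.2 CPM in not_extravasated_2, against 35.7 and 40.6 CPM in extravasated_1 and extravasated_2. The extravasated libraries were both below the others. The log2 fold change was -1.62 ± 0.460 (SE), and the adjusted p by edgeR was 0.0369. Its size rested on not_extravasated_1, without which it was -0.75 (called), and it was -2.17 without not_extravasated_2 (called). The call ended without extravasated_1 (-1.49, adjusted p = 0.134) and without extravasated_2 (-1.74, adjusted p = 0.131), with RLE size factors (-1.60, adjusted p = 0.103) and with no filter on low counts (-1.61, adjusted p = 0.341).

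Gsk3b (ENSMUSG00000022812.13, chromosome 16, 38089001 to 38246084), a kinase that marks beta-catenin for degradation, fell 2.24-fold. It stood at 142.1 and 148.6 CPM in not_extravasated_1 and not_extravasated_2, and at 75.8 and 54.2 CPM in extravasated_1 and extravasated_2. The groups did not overlap. The log2 fold change was -1.16 ± 0.175 (SE), and the adjusted p by edgeR was 0.00254. Gsk3b was the only one of the 5 called genes whose call held without each library in turn. Csnk1a1 (ENSMUSG00000024576.14, chromosome 18, 61555274 to 61590061), the priming kinase CK1 alpha, fell 1.48-fold. It stood at 233.2 and 233.1 CPM without extravasation and at 176.9 and 137.2 CPM with it. On the log2 scale this was -0.57 ± 0.148 (SE), and the adjusted p by edgeR was 0.0172. Without extravasated_2 it was -0.43 and not called (adjusted p = 0.132).

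Of the TCF and LEF genes, Tcf7l2 (ENSMUSG00000024985.18, chromosome 19, 55741820 to 55933654), which encodes TCF4, fell 1.53-fold. It stood at 25.4 and 19.6 CPM without extravasation and at 15.4 and 13.9 CPM with it. Both extravasated libraries were below the others. The log2 fold change was -0.62 ± 0.203 (SE), and the adjusted p by edgeR was 0.0398. The call ended without not_extravasated_1 (-0.42, adjusted p = 0.12), without extravasated_1 (-0.67, adjusted p = 0.114), without extravasated_2 (-0.57, adjusted p = 0.193) and with DESeq2 (-0.60, adjusted p = 0.0549). Lef1 (ENSMUSG00000027985.14, chromosome 3, 131110471 to 131224356) gave few reads and was not tested. It had 6 counts (exact 95% Poisson interval 2.2 to 13.1) in not_extravasated_1 and 8 (3.45 to 15.8) in not_extravasated_2. The extravasated libraries had 8 (3.45 to 15.8) and 1 (0.0253 to 5.57). These intervals cover counting error only. Per kilobase, Tcf7l1 was the highest of the 4 TCF and LEF genes, with 45.0 and 51.7% of their summed level without extravasation and 54.7 and 56.1% with it. The share of Tcf7l2 was 31.97 and 26.3% in the non-extravasated and 22.6 and 18.8% in the extravasated libraries, and that of Tcf7 was 21.4 to 25.03% in the 4 libraries.

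Ordered by mean level per kilobase, the non-extravasated libraries ran from Ctnnb1 (309.6 ± 6.52 CPM per kilobase, SD, n = 2) through Csnk1a1 (57.1 ± 0.0246) to Lrp6 (24.97 ± 0.968). Gsk3b (17.5 ± 0.555), Axin1 (16.5 ± 2.05) and Lrp5 (16.3 ± 0.931) followed and did not differ beyond their spread. Apc (9.20 ± 5.93), Axin2 (7.42 ± 1.79) and Tcf7l2 (7.05 ± 1.30) were likewise within their spread of each other, and Lef1 was last (0.141 ± 0.0118). In the extravasated libraries, Ctnnb1 (301.9 ± 27.3) and Csnk1a1 (38.5 ± 6.88) again came first, then Lrp5 (21.3 ± 1.81) and Axin1 (20.7 ± 0.244), which overlapped. Lrp6 (5.999 ± 0.750) had moved from the place behind Csnk1a1 to one behind Axin2 (8.23 ± 0.323) and Gsk3b (7.83 ± 1.84), and its range met that of Gsk3b. Tcf7l2 (4.59 ± 0.354), Apc (2.98 ± 0.272) and Lef1 (0.0945 ± 0.112) lay below it. These orders rest on the annotated transcript lengths and on levels without a correction for GC content. The move of Lrp6 contains the fall by which it was chosen, and the change of order was not tested.

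**Figure D2:**
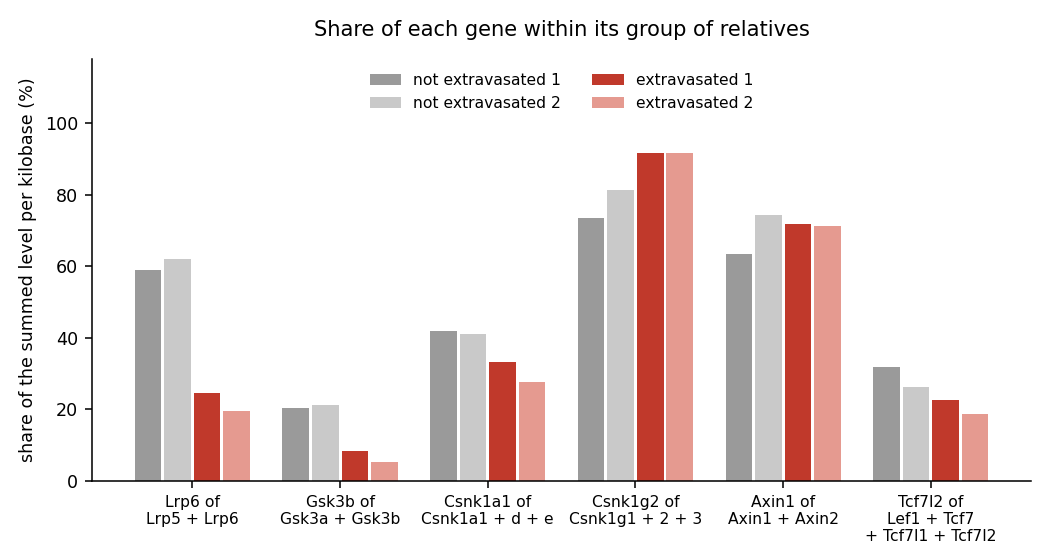
Share of 1 gene in the summed level per kilobase of its group of relatives, in percent, with 1 bar for each library. The levels carry no correction for GC content. The share of Lrp6 is 58.9 and 62.2% in the grey bars and 24.6 and 19.5% in the red ones, that of Gsk3b falls from 20.5 and 21.4 to 8.38 and 5.36%, and the bars for Axin1 overlap.

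Of the 8 genes tested other than Lrp6, 4 were lower (Apc, Gsk3b, Csnk1a1 and Tcf7l2) and 1 was higher (Lrp5), or 50% and 12.5%. Over all 12320 genes, 25.9% were called lower and 19.1% higher (45.1% in either direction). With 8 genes, 1 call more or less moves such a share by 12.5 percentage points. The median log2 fold change of the 8 was -0.30, against -0.02 over all genes. Of the 8, 4 were lower without overlap of the groups and 2 higher. Over all genes tested, the extravasated libraries lay below both others in 39% and above both in 37.3% (76.3% without overlap).

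The 10 genes differ in the length and GC content of their transcripts, and fold changes followed GC content across the whole table. Over 11126 nuclear coding genes, which are not independent replicates, the Spearman rho of fold change was 0.743 with transcript GC content and -0.378 with length. The annotated transcript of Lrp6 has 9368 bases and 46.0% GC, with 4310 bases and 40.6% GC behind the coding sequence. Of nuclear coding genes tested, 26.6% had a lower GC content and 2.71% a longer transcript. That of Lrp5 has 5161 bases and 58.6% GC, and 90.7% of those genes had a lower GC content. The 5 genes that were lower in extravasated cells, Lrp6 included, had 43.2 to 47.0% GC, and the 4 other genes tested had 50.3 to 58.6%.

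**Figure D3:**
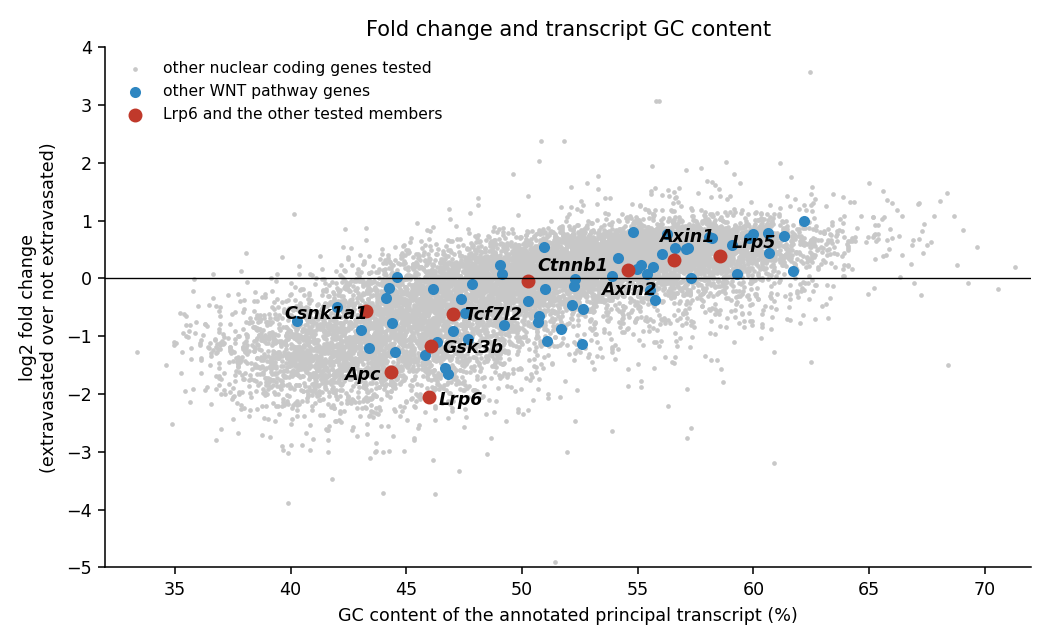
Log2 fold change (extravasated over not extravasated) against GC content of the annotated principal transcript in percent, with 1 point for each nuclear coding gene tested; 1 gene lies outside the axes. Red points are Lrp6 and the 8 other tested members, and blue points are other WNT pathway genes. The points rise from left to right, and Lrp6 lies at -2.06 and 46.0% GC, in the lower part of the grey points of its GC content.

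With a correction for GC content and length, the difference in Lrp6 was smaller but kept its sign. Its corrected log2 fold change was -1.04 ± 0.140 (SE), or 2.05-fold lower, and -1.07 with the longest annotated transcripts. With 1 library left out it was -0.86 (without not_extravasated_2) to -1.19 (without not_extravasated_1). These values come from the libraries by whose difference Lrp6 was chosen, so they are a description and were not tested. None of the 8 other tested members was called after correction by edgeR, with 1 at an unadjusted p under 0.05, where 13.9% of all genes were called (5.73% lower and 8.13% higher). Their corrected log2 fold changes were 0.13 for Lrp5, 0.04 for Ctnnb1, 0.00 for Axin1 and -0.06 for Axin2. They were -0.11 for Apc, -0.22 for Gsk3b, 0.44 for Csnk1a1 and -0.15 for Tcf7l2. The adjusted p was 0.332 for Gsk3b and 0.857 for Apc. Csnk1a1 turned direction (adjusted p = 0.0704), and without not_extravasated_2 its corrected value of 0.54 was called (adjusted p = 0.0312). The correction removes whatever goes with GC content and length, of whatever origin, and the cause of the trend was not tested.

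**Figure D4:**
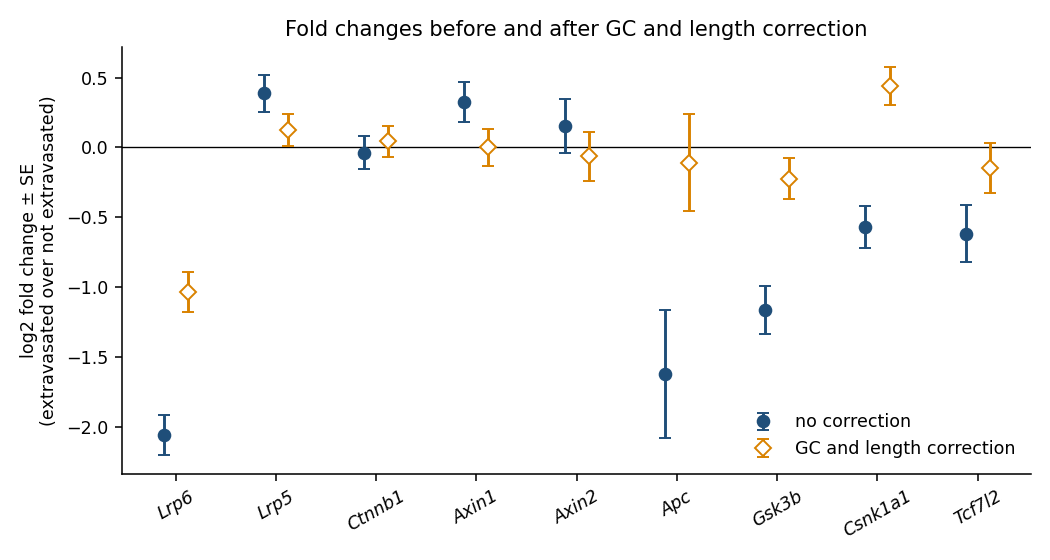
Log2 fold changes of the 9 tested genes with SE bars, without correction (filled circles) and with the GC and length correction (open diamonds). Lrp6 moves from -2.06 to -1.04, Apc from -1.62 to -0.11, Gsk3b from -1.16 to -0.22, and Csnk1a1 from -0.57 to 0.44.

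The genes most like Lrp6 over the 4 libraries, by the Euclidean distance of log2 CPM deviations from each gene's own mean among 11132 other tested coding genes, were Sesn3, Il13ra1, Herc1, Tia1 and Eml6. Sesn3 encodes a stress-responsive sestrin, Il13ra1 a subunit of the interleukin 13 receptor, Herc1 a giant ubiquitin ligase, Tia1 an RNA-binding protein of stress granules and Eml6 a protein of the microtubule-binding EML family. Their distances were 0.0793, 0.103, 0.104, 0.136 and 0.152. Sesn3, the closest, stood at 63.4 and 66.7 CPM without extravasation and at 16.6 and 13.3 CPM with it. Transcript GC content was 41.2 to 47.9% in these 5 genes, and their log2 fold changes were -1.93 to -2.13 before and -0.87 to -1.24 after correction. Likeness over 4 libraries is largely likeness of the difference between the groups.

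The rest of the pathway was described by role, from 105 listed genes other than the 10 members. Of these, 27 had no read in any library and 60 were tested, of which 16 were lower and 10 higher in extravasated cells. That is 26.7 and 16.7%, beside 25.9 and 19.1% of all genes tested, with a median log2 fold change of -0.11 against -0.02. With plain library totals 17 were lower and 6 higher, beside 3346 and 1943 of all 12320 genes tested. After correction 4 were lower and 6 higher, beside 706 and 1002 (5.73 and 8.13%) of all genes tested. Leaving out either extravasated library lowered the number of calls among the 60 and over all genes tested alike. The calls of Csnk1g3, Tnks, Tnks2, Ep300 and Ppp2r1a held without each library in turn, before correction. Among the 22 tested pathway genes with a transcript GC content under 50%, a limit chosen after the values were seen, 13 were lower and 0 higher. Among the 38 others 3 were lower and 10 higher. For all nuclear coding genes tested, the shares were 53.5% lower and 2.47% higher under 50% GC, and 3.24% lower and 36.5% higher above it.

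WNT ligands were scarce. Of 19 ligand genes, 11 had no read in any library, which allows up to 0.158 to 0.26 CPM in a library (3 counts), and 3 were tested. Wnt5b, a ligand known mainly for signalling without beta-catenin, was the best expressed, at 1.30 and 1.33 CPM without extravasation and at 2.04 and 2.42 CPM with it. Its extravasated libraries were above the others, but its log2 fold change of 0.76 did not pass (edgeR, adjusted p = 0.142). None of the 3 ligand genes was called by edgeR, DESeq2 or limma-voom, with 0 at an unadjusted p under 0.05 in each. Over all genes tested, edgeR called 45.1%. Wls, the carrier that brings WNT proteins to the cell surface, stood at 156.0 and 136.4 CPM without extravasation and at 110.8 and 95.8 CPM with it. It fell by 0.50 on the log2 scale (edgeR, adjusted p = 0.0221). It was not called without extravasated_1 (-0.58, adjusted p = 0.0573) or extravasated_2 (-0.43, adjusted p = 0.14), and it was called higher after correction (0.60, adjusted p = 0.0217). Porcn, which attaches the lipid to WNT proteins, was near 1 CPM and not called.

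Among the receptors, Fzd7 made up 61.1 to 64.2% of the summed frizzled level per kilobase in the 4 libraries. It stood at 104.9 and 120.6 CPM without extravasation and at 130.8 and 100.5 CPM with it, and the groups overlapped (log2 fold change 0.03, adjusted p = 0.879). Of 9 tested receptor genes 1 was called lower and 0 higher, or 11.1 and 0%, beside 25.9 and 19.1% of all genes tested. The called gene was Fzd4, at 9.20 and 12.4 CPM without extravasation and at 7.04 and 4.58 CPM with it. Fzd4 had a log2 fold change of -0.91 (edgeR, adjusted p = 0.0373). It was not called without not_extravasated_2 (-0.68), extravasated_1 (-1.22) or extravasated_2 (-0.66), nor after correction (-0.21). Without not_extravasated_2, Fzd2 was called higher (0.70) and Fzd6 lower (-0.63), and with plain library totals Fzd5 was called lower (-0.58). Ryk, a receptor tyrosine kinase-like WNT receptor, was the best expressed of the list that was not called, at 155.3 to 180.9 CPM. Of the R-spondin axis, which sets how long receptors stay at the surface, 3 genes were tested, and 1 was called lower and 0 higher. That is 33.3 and 0%, beside 25.9 and 19.1% of all genes tested. Lgr4 fell by 1.10 on the log2 scale (edgeR, adjusted p = 0.00629), from 14.6 and 15.5 to 7.72 and 6.37 CPM. It was not called without extravasated_2 (-0.998, adjusted p = 0.0731) or after correction (-0.41). Znrf3, a ubiquitin ligase that removes frizzled and LRP6 from the surface, was not called (-0.65, adjusted p = 0.15), but was called without not_extravasated_2 (-0.85) or extravasated_1 (-1.16). None of 4 tested antagonists was called by edgeR, beside 45.1% of all genes tested. By DESeq2 and limma-voom none was called either. In all these fits, 0 antagonists had an unadjusted p under 0.05. Dkk3, a dickkopf relative, was the best expressed of them, at 82.6 to 101.9 CPM, and Dkk1, the classical inhibitor of LRP6, had at most 3 counts in a library. Frzb was called lower without not_extravasated_1 (-0.60), as was the R-spondin receptor gene Lgr6 (-1.78).

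Of 6 tested genes that fold or phosphorylate LRP6, 3 were lower and 1 higher (50% and 16.7%, beside 25.9 and 19.1% of all genes). Csnk1g1 and Csnk1g3, which encode CK1 gamma kinases that act on the tail of LRP6, fell by 1.33 and 1.05 on the log2 scale (edgeR, adjusted p = 0.0117 and 0.00315). Csnk1g2, also of this family, rose by 0.59 (adjusted p = 0.0099). Csnk1g3 stood at 57.2 and 45.2 CPM without extravasation and at 23.5 and 25.8 CPM with it, and Csnk1g2 at 167.2 and 199.6 against 276.1 and 275.1 CPM. In each case the groups did not overlap. Csnk1g2 had 73.7 and 81.3% of the summed level of the family per kilobase without extravasation and 91.8% in both extravasated libraries. Csnk1g1 was not called without extravasated_2 (-1.05, adjusted p = 0.0664), nor Csnk1g2 without extravasated_1 (0.61) or extravasated_2 (0.55). After correction neither Csnk1g1 (-0.41, adjusted p = 0.21) nor Csnk1g2 (0.07, adjusted p = 0.758) was called. Csnk1g3 was called after correction (-0.74, adjusted p = 0.0281), and stood at -0.04 and was not called with the longest transcripts. Cdk14, a kinase that primes LRP6 in mitosis, fell by 0.78 (adjusted p = 0.0259), but was not called without extravasated_2 (-0.55, adjusted p = 0.172). After correction its value turned to 0.15 and was not called (adjusted p = 0.635). Its cyclin partner Ccny was not called (-0.16) and was called higher after correction (0.85, adjusted p = 0.0103). Mesd, the chaperone that folds LRP5 and LRP6, stood at 52.2 and 46.4 CPM without extravasation and at 55.5 and 60.0 CPM with it, and was not called (0.23, adjusted p = 0.218) but was called higher after correction (0.53, adjusted p = 0.0426), though not with the longest transcripts (0.49, adjusted p = 0.0555).

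All 3 dishevelled genes, whose proteins carry the signal from frizzled to AXIN, were called higher in extravasated cells, beside 19.1% of all genes tested and 36.5% of coding genes with at least 50% GC, where all 3 lie. Dvl1 stood at 27.6 and 30.1 CPM without extravasation and at 48.9 and 50.8 CPM with it, and rose by 0.79 on the log2 scale (edgeR, adjusted p = 0.00497). Dvl2 and Dvl3 rose by 0.53 and 0.44 (adjusted p = 0.0278 and 0.0328). Without extravasated_2 none of the 3 was called, at 0.72, 0.35 and 0.43 (adjusted p = 0.0674, 0.275 and 0.151). Dvl2 and Dvl3 were not called without extravasated_1 (0.69 and 0.45), nor with plain library totals (0.47 and 0.39), and Dvl3 was not called without not_extravasated_2 (0.37). Fewer of all genes tested were called higher too when either extravasated library was left out. After correction Dvl1 was 0.36, Dvl2 0.29 and Dvl3 -0.04, and edgeR called none of them, with 1 at an unadjusted p under 0.05. Their transcripts have 57.2 to 60.7% GC.

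Among the other genes of the destruction complex and its turnover, 5 of 11 tested were lower and 3 higher, or 45.5 and 27.3%, beside 25.9 and 19.1% of all genes tested. The lower ones include both tankyrases, Tnks and Tnks2, which mark AXIN for degradation, and Rnf146, the ubiquitin ligase that reads that mark. Tnks fell by 1.65 on the log2 scale (edgeR, adjusted p = 0.00215), from 119.4 and 107.1 to 44.1 and 28.3 CPM. Tnks2 fell by 1.28 (adjusted p = 0.000809), from 152.4 and 156.9 to 67.1 and 60.3 CPM, and Rnf146 by 0.90 (adjusted p = 0.0123). Tnks kept its call after correction (-0.75, adjusted p = 0.0224), and Tnks2 (-0.25) and Rnf146 (0.17) did not. Amer1, a membrane scaffold for APC, fell by 1.54 (adjusted p = 0.00576), and was -0.68 and not called after correction (adjusted p = 0.128). Btrc, the F-box protein that hands phosphorylated beta-catenin to the ubiquitin ligase, fell by 0.46 (adjusted p = 0.0407) and was -0.62 after correction (adjusted p = 0.0283), but 0.40 and not called with the longest transcripts. Neither Rnf146 nor Amer1 was called without extravasated_2 (-0.77 and -1.28). Btrc was not called without not_extravasated_2 (-0.33), extravasated_1 (-0.44) or extravasated_2 (-0.48), nor with DESeq2 (-0.43).

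Gsk3a, the paralogue of Gsk3b, rose by 0.70 (edgeR, adjusted p = 0.00468), from 149.7 and 148.9 CPM to 225.5 and 260.6 CPM in the extravasated libraries. The share of Gsk3b in the summed Gsk3 level per kilobase was 20.5 and 21.4% without extravasation and 8.38 and 5.36% with it. Gsk3a was not called without extravasated_2 (0.56, adjusted p = 0.0715) or after correction (0.21). Of the CK1 relatives, Csnk1d rose by 0.36 (adjusted p = 0.0449). That call ended without not_extravasated_2 (0.30), extravasated_1 (0.41) or extravasated_2 (0.30), with plain library totals (0.30) and after correction (0.11, adjusted p = 0.539). Csnk1e was not called (-0.13), but was called lower in the correction with the longest transcripts (-0.52). Ppp2r1a, the scaffold of the phosphatase PP2A, rose by 0.81 (adjusted p = 0.00298), from 225.9 and 203.0 to 350.2 and 402.5 CPM, and was called after correction (0.44, adjusted p = 0.049), though not with the longest transcripts (0.42). Ppp2ca, its catalytic partner, was not called (0.02) but was higher after correction (1.07, adjusted p = 0.00816).

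Of 14 tested nuclear partners of beta-catenin, 4 were lower and 3 higher. These shares of 28.6 and 21.4% were close to the 25.9 and 19.1% of all genes tested. Ep300 and Crebbp, the acetyltransferases p300 and CBP, fell by 1.08 and 0.88 on the log2 scale (edgeR, adjusted p = 0.00222 and 0.00755). Ep300 stood at 141.7 and 136.0 CPM without extravasation and at 74.4 and 56.8 CPM with it, and it kept its call after correction (-0.69, adjusted p = 0.0207). Chd8, a chromatin remodeller that binds beta-catenin, and Tle4, a TCF corepressor, fell by 0.81 and 0.59 (adjusted p = 0.0225 and 0.044). Pygo2, a beta-catenin coactivator, rose by 0.70, Ctbp1, a corepressor, by 0.51 and Tle3, another TCF corepressor, by 0.43 (adjusted p = 0.00792, 0.014 and 0.0382). Without extravasated_2 the values were -0.75 for Crebbp, -0.55 for Chd8, -0.59 for Tle4, 0.59 for Pygo2, 0.39 for Ctbp1 and 0.34 for Tle3, and none of these 6 was called by edgeR. Fewer of all genes tested, lower and higher, were called without that library too. The correction also ended all 6 calls, with -0.48 for Crebbp, -0.29 for Chd8, -0.09 for Tle4, 0.29 for Pygo2, 0.06 for Ctbp1 and 0.10 for Tle3. Their adjusted p was then 0.122 to 0.761. Pygo1, the other pygopus gene, was not called (-0.33, adjusted p = 0.117) but was called higher after correction (0.85, adjusted p = 0.0169). Tle3 and Tle4 also lost their calls without extravasated_1 (0.51 and -0.60). Tle3 lost it without not_extravasated_2 (0.33). Tle4 lost it without not_extravasated_1 (-0.51) and with DESeq2 (-0.57), and Tle3 with plain library totals (0.38). Tle1 was called lower without not_extravasated_1 (-0.66). Bcl9l, which links beta-catenin to the pygopus proteins, was the best expressed of those not called, at 105.5 to 126.6 CPM.

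Of 17 listed targets of the pathway, 7 were tested, and 1 was called lower and 0 higher. That is 14.3 and 0%, beside 25.9 and 19.1% of all genes tested. The called gene was Mitf, the melanocyte master regulator, lower by 1.20 on the log2 scale (edgeR, adjusted p = 0.0132). It was not called without extravasated_1 (-1.03) or extravasated_2 (-1.38), and it was -0.10 after correction. Ccnd1, which encodes cyclin D1, was the best expressed of those not called, at 475.5 CPM in not_extravasated_1, 82.7 CPM in not_extravasated_2 and 409.5 and 403.7 CPM in the extravasated libraries. Myc stood at 107.5, 38.7, 117.9 and 121.6 CPM. For both genes not_extravasated_2 was low and the other 3 libraries lay close together, and the groups overlapped for Ccnd1 but not for Myc. Their log2 fold changes of 0.55 and 0.72 were not called (adjusted p = 0.662 and 0.251). They were 2.30 and 1.63 and called without not_extravasated_1. Jun, at 62.4 and 175.2 against 112.9 and 94.99 CPM, was called lower without not_extravasated_1 (-0.76) and higher without not_extravasated_2 (0.73). Ccn4 was called lower without not_extravasated_2 (-0.57). The targets Nkd2, Sp5 and Tbx3 had no read in any library, and Lgr5 had 1 to 7 counts in each.

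Relatives of Lrp6 among the other LRP genes gave 0 lower calls and 1 higher call among 8 tested. That is 0 and 12.5%, beside 25.9 and 19.1% of all genes tested. Lrp10, a small member with a role in intracellular sorting, rose by 0.78 (edgeR, adjusted p = 0.00349), from 43.4 and 42.8 to 73.7 and 74.2 CPM. It was called without each library in turn, and after correction (0.45, adjusted p = 0.0466), though not with the longest transcripts (0.43). Lrp1, a large endocytic receptor and the best expressed of the rest, stood at 72.4, 99.5, 68.3 and 78.9 CPM, and its groups overlapped. Lrp2 had the lowest log2 fold change of the 8, at -1.23 (adjusted p = 0.0542), from 1.996 and 2.20 to 1.14 and 0.684 CPM. It was called lower with limma-voom (-1.27, adjusted p = 0.049) and with the title suffix term (-1.23). Without not_extravasated_1, Lrp1, Lrp2, Lrp4 and Lrp12 were called lower, with log2 fold changes of -0.43 to -1.31. That fit also called more of all genes tested lower than the fit with every library. Whether Lrp6 differed from its relatives in its change was not tested.

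**Figure D5:**
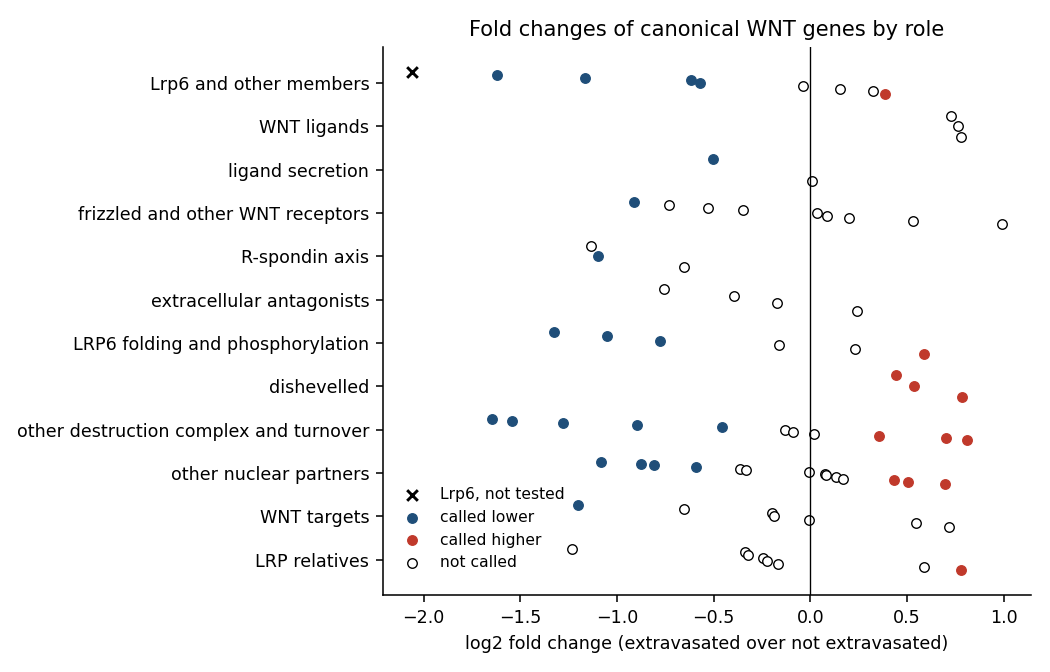
Log2 fold change (extravasated over not extravasated) of every tested gene on the lists, with 1 row for each role and 1 point for each gene; filled points were called lower (blue) or higher (red) by edgeR at an adjusted p under 0.05, and open points were not called. The cross is Lrp6, at -2.06, which was chosen for its fall in this same comparison. It lies left of all other points, whose lowest is Tnks at -1.65. All 3 dishevelled genes lie at 0.44 to 0.79.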

How the data were processed

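PolyA RNA of 4 libraries was measured, 2 a group, from 11705904 to 19674733 counts each. The authors deposited raw counts of reads for each gene. The submitters' processing notes name STAR 2.5.3a, bcl2fastq 2.18.0.12 and GRCm38. A stranded kit was used, per the labels' protocols. The counter and its strand setting are not given in the sources used here, so overlapping genes are uncertain. Of 53465 identifiers, 53274 matched GENCODE M21 without version numbers.

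Members and lists were chosen with earlier results of these data known. Named were all members, the called genes of each list and its best expressed gene not called, and further genes not called were named after their values were seen. For 1 gene of a list, results are not reported here.

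Genes were tested with edgeR 4.0.16 (R 4.3.3; default filter with counts of 10 and 15, TMM, robust two-sided quasi-likelihood test, no covariate) and Benjamini-Hochberg adjustment over 12320 genes. "Called" means an adjusted p under 0.05. Levels per kilobase use APPRIS principal transcripts.

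For the correction, each library's deviation in log2 CPM (prior count 2) was smoothed on transcript GC content and log2 length (mgcv 1.9.3) and entered as an offset.

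Alternatives were RLE factors, plain library totals, DESeq2 1.42.0, limma-voom (limma 3.58.1), no filter, CPM above 1 in 2 libraries, a title suffix term, longest transcripts, and each library left out with the tested genes kept. A lone library was then assumed to vary like the other group. The code was tested on simulated data.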

Additional observations from a re-analysis of the deposited data

How the results depend on the processing

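The log2 fold change of Lrp6 was -1.97 to -2.16 with 1 library left out, and within that range under the other uncorrected alternatives. Under the GC and length correction it was -1.04, -1.07 with the longest transcripts and -1.03 with the suffix term. Without not_extravasated_1, not_extravasated_2, extravasated_1 and extravasated_2, in that order, the corrected value was -1.19, -0.86, -1.05 and -1.03. Uncorrected, 5 other members, 26 other pathway genes and 5551 genes in all were called, and with 1 library left out 1 to 5, 5 to 31 and 1677 to 6185. DESeq2 called 3 other members. Corrected, the counts were 0, 10 and 1708, or 0, 7 and 1671 with the longest transcripts. With 1 library left out in the order above, corrected calls were 0, 1, 0 and 0 of the other members, 20, 9, 0 and 0 pathway genes, and 2887, 2048, 182 and 0 genes in all. In the last of these fits edgeR gave 2090 genes an unadjusted p under 0.05, among them 8 pathway genes and 1 other member. The replicate numbers were given in accession order and pair nothing. Libraries with the same kind of title suffix deviated from their group means with a correlation of 0.107 across genes. With that suffix as a replicate block, 5 other members, 26 pathway genes and 6165 genes were called, and after correction 1 (Csnk1a1), 12 and 3136. Csnk1a1 turned direction under every correction: 0.44, 0.41 with the longest transcripts, 0.44 with the suffix term, and 0.35, 0.54, 0.31 and 0.56 with 1 library left out in the same order. Corrected, Apc was 0.49 without not_extravasated_1 and 0.073 without extravasated_1, and Tcf7l2 was 0.027 without not_extravasated_1. The cause was not tested. With 2 libraries a group, the 2 residual degrees of freedom limit every call, and Lef1 and most ligand genes had too few counts to compare.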
